A study of Homo sapiens with 10 samples.

Results

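Cadherins are calcium-dependent adhesion proteins of the cell surface. Classical cadherins of type I and type II join neighbouring cells and bind catenins inside the cell, which link them to the actin cytoskeleton. The protocadherins are a larger branch of the family, best known from neurons. The PCDHA, PCDHB and PCDHG genes lie side by side on chromosome 5, and each gene has its own promoter and its own large first exon. In the PCDHA and PCDHG clusters these variable exons are spliced to constant exons that all genes of the cluster share, so that a promoter choice sets which extracellular domain a cell makes.

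The genes described here are the rows of the count table whose symbol is CDH or PCDH followed by a number or a cluster name, with the Y-linked member left out. They were 90 of 23089 genes: 22 CDH genes, 11 single PCDH genes and 57 clustered PCDH genes (15 PCDHA, 19 PCDHB and 23 PCDHG). Of these, 81 had 20 or more counts summed over the libraries, and levels are given for those. The other 9 (CDH7, CDH16, CDH17, CDH19, CDH20, CDH22, PCDH10, PCDH12 and PCDHB1) had 1 to 13 counts.

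The libraries were made from U2OS cells, a human osteosarcoma line, 3 days after transfection with siRNA. H2A.Z is a histone variant encoded by 2 genes, named H2AFZ (H2A.Z.1) and H2AFV (H2A.Z.2) in the count table. The 5 groups received control siRNA 3 or 4 (siCtrl 3, siCtrl 4), the siRNA against H2A.Z.1 (siH2A.Z.1) or that against H2A.Z.2 (siH2A.Z.2), or both of the latter (the combined depletion), each with 2 libraries of strand-specific total RNA depleted of ribosomal RNA, and the comparisons ask which genes respond to loss of either isoform or of both. Each isoform was targeted by 1 siRNA, and the study's methods say that 2 samples of each group were transfected in parallel. The p-values therefore measure the spread between parallel transfections of 1 cell line. Where a depletion is set against the pooled controls, this spread also holds the difference between the 2 control siRNAs.

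Total counts lay between 16716990 and 26946836 per library, of which 12883 to 22116 fell on the members. H2AFZ was at 7.86% of its control mean with siH2A.Z.1 and 9.05% with both siRNAs, and H2AFV was at 33.2% with siH2A.Z.2 (adjusted p = 0.075, edgeR) and 39% with both. The controls were not alike here. Both H2AFZ and H2AFV were called lower with siCtrl 4 than with siCtrl 3, with a median log2 fold change of -0.56 over the 2 genes. Among markers of the cell type, the bone matrix gene COL1A1 and the osteoblast regulator RUNX2 had means of 801 and 13.3 CPM (read counts scaled to a common library size) in the controls, whereas EPCAM of epithelia had 2.61, the neuronal RBFOX3 0.693 and the leukocyte PTPRC 0.304. The marker list also held VIM, COL1A2, SPARC, the epithelial KRT8 and KRT18 and the neuronal SNAP25, whose levels are not given. All 11 markers had enough counts to be tested, so the low values shown do not speak for the rest. The 2 control siRNAs differed from each other at 17.2% of genes called up and 17.3% called down, which is why they are given separately below.

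The siRNAs and the shared promoter letters are shown first, to let a reader see which of the members named later carry a match and which do not. The study also used another siRNA against H2A.Z.2, and the labels do not say which of them these libraries received. The first siRNA listed by the study for each isoform was taken, so the H2A.Z.2 matches rest on that choice. The guide strands of both siRNAs, 5′ to 3′ and with the seed (bases 2 to 8) in capitals, are
H2A.Z.1: cUCAAUCAaaacccacuac
H2A.Z.2: uCAACACAcaacugucacc
Each siRNA matched in full the transcripts of its own target gene alone in GENCODE v44. The 7 letters opposite the H2A.Z.1 seed, TGATTGA, occurred in a 3′UTR of 12% of 16538 genes and of 12 of 86 members with an annotated 3′UTR. The 7 letters opposite the H2A.Z.2 seed, TGTGTTG, occurred in 20.1% of genes and in 11 members. Matches were read on the transcribed strand, and are given in capitals for the 4 members called upon H2A.Z.1 depletion that carry the H2A.Z.1 match and for PCDH11X (hg38, transcript strand). PCDH17 and PCDH19 also hold matches to the H2A.Z.2 seed, PCDH9 and PCDH15 hold matches to both seeds, CDH23 holds one to the H2A.Z.1 seed, and CDH13 and PCDHB14 hold one to the H2A.Z.2 seed. PCDH7, PCDH18, CDH10, CDH2 and CDH24 hold none.
CDH1 (chr16:68834918-68834924, plus strand): gctgaggaTGATTGAggtgggtc
CDH8 (chr16:61649658-61649664, minus strand): tgccttttTGATTGAaagttcca
PCDH19 (chrX:100291864-100291870, minus strand): tttcacagTGATTGAatcattgt
PCDH17 (chr13:57727148-57727154, plus strand): aaatgcctTGATTGAcattttct
PCDH11X (chrX:92620920-92620926, plus strand, H2A.Z.2 seed): catacaaaTGTGTTGatattgtg

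Promoters of the clustered genes are known to carry a conserved element with a CGCT core. In the RefSeq promoters (250 bases before to 50 after the start), found for 47 of the 57 clustered members, the 8 letters around this core that most genes of a cluster shared were ATGTCGCT in 9 of 13 PCDHA genes, GTGGCGCT in 13 of 14 PCDHB genes and GCCGCTGT in 11 of 20 PCDHG genes. They were searched on both strands and occurred in 0.282%, 1.38% and 1.98% of 27305 genes with a promoter, and none of them occurred in a promoter of the other two clusters. They were picked from these same promoters, so the cluster counts are a description. The CGCT core on its own occurred in 71.9% of all promoters. Windows of 40 bases from members that changed, with the shared letters in capitals (hg38, plus strand), read
PCDHA12 (chr5:140875242-140875281): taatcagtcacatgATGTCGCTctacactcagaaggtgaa
PCDHB5 (chr5:141135177-141135216): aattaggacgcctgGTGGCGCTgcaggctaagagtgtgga
PCDHB8 (chr5:141177775-141177814): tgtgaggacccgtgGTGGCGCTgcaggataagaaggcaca
PCDHB16 (chr5:141182308-141182347): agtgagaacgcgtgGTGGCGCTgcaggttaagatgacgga
PCDHGA7 (chr5:141382647-141382686): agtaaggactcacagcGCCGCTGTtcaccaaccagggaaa
PCDHGA9 (chr5:141402712-141402751): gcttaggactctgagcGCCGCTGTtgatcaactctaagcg
PCDHGA10 (chr5:141412929-141412968): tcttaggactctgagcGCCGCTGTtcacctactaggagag
PCDHGC3 (chr5:141475878-141475917): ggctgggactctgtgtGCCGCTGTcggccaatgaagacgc

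In control cells the classical cadherins CDH2 and CDH24 ranked highest of the members. Levels are given in CPM, and levels of different genes are compared per kilobase of exon not shared with another gene of the table. CDH2, the N-cadherin of mesenchymal and neural cells, was highest at 34.9 CPM per kb, followed by the type II cadherin CDH24 at 21.7, the clustered PCDHGC3 at 15 and CDH4 (R-cadherin) at 9.20. CDH11, the cadherin of osteoblasts, had 7.88, PCDHB5 7.12, CDH13 (a cadherin held by a lipid anchor, without a cytoplasmic domain) 6.13 and PCDHB8 4.13. CDH1, the E-cadherin of epithelia, had 0.602 and CDH3 (P-cadherin) 0.0986. Among delta protocadherins PCDH17 was highest at 2.01, with PCDH18 at 0.92 and PCDH9 at 0.813, and of the other single protocadherins only PCDH15 reached 20 counts (0.0538). CDH18 followed CDH24 and CDH11 among the type II genes at 3.28, and CDH26 and CDH23 followed CDH13 at 0.0966 and 0.0158. The order of CDH4, CDH11, PCDHB5 and CDH13 is not fixed by these libraries, since CDH4 and PCDHB5 differed between the control siRNAs by more than these genes differed from each other.

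**Figure D1:**
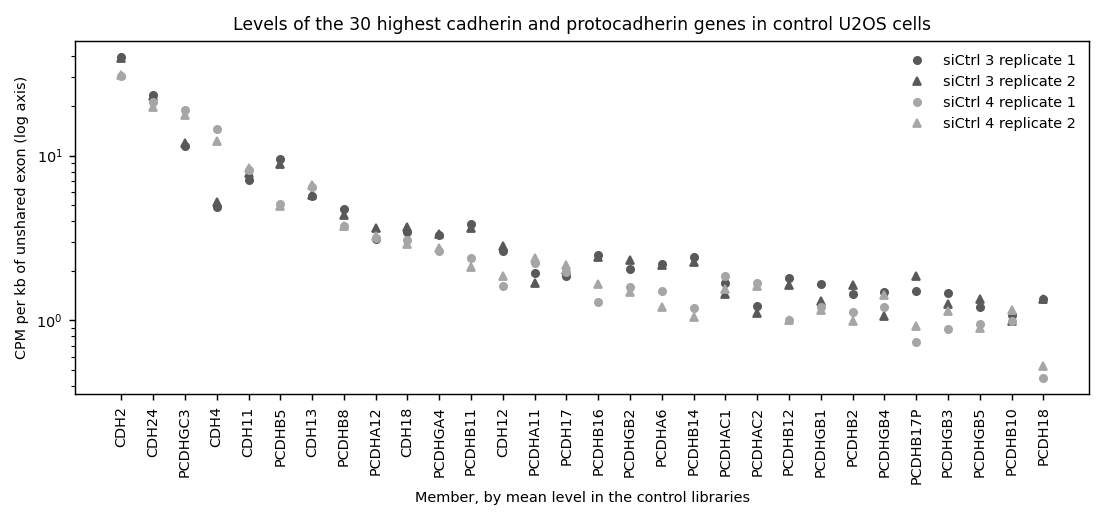
CPM per kilobase of unshared exon (log axis) of the 30 members with the highest mean in the 4 control libraries. Circles are replicate 1 and triangles replicate 2, dark for siCtrl 3 and light for siCtrl 4. CDH2 lies highest in every library, and the siCtrl 3 and siCtrl 4 points separate at CDH4, PCDHB5, PCDHB14 and PCDH18.

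Upon H2A.Z.1 depletion, members moved in both directions. E-cadherin, PCDH18, PCDHGC3 and 3 PCDHB genes fell, and PCDH7, CDH8, PCDH19, CDH10, 2 PCDHA genes and 6 PCDHG genes rose. Of 77 members tested, 13 were called up (edgeR, adjusted p under 0.05 and a fold change above the minimum set for all comparisons), where 12.2% of all genes were called up, and 8 were called down, where 15.7% of all genes were. The median log2 fold change was 0.18 over the members tested and -0.02 over all genes. The call count rested on few libraries: it was 13 without siCtrl 4 replicate 2, 3 without siH2A.Z.1 replicate 1 (CDH8, CDH10 and PCDH7) and 2 without siH2A.Z.1 replicate 2 (CDH8 and PCDH7). Against siCtrl 3 alone 20 of the 21 calls were made, and against siCtrl 4 alone all 21.

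CDH1 (chr16:68737292-68835537, hg38, plus strand) was at 3.99 and 3.57 CPM with siCtrl 3, 2.09 and 1.94 with siCtrl 4, and 0.374 and 0.427 with siH2A.Z.1. Both depleted libraries lay below all 4 controls, and the siCtrl 4 libraries below those of siCtrl 3. In bulk RNA, fewer cells with a transcript and less of it per cell cannot be told apart. The log2 fold change was -2.84 ± 0.46 (SE; adjusted p = 0.0063, edgeR), and it was -3.22 against siCtrl 3 alone and -2.31 against siCtrl 4 alone. CDH1 carries 1 match to the H2A.Z.1 seed in its 3′UTR, and the part of this match in the fall was not tested.

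Of the other type I cadherins, CDH2 was at 160 and 175 CPM against 127 to 168 in the controls, with no call (log2 fold change 0.18 ± 0.15, adjusted p = 0.404, edgeR). CDH4 had 29.3 and 27.8 CPM with siH2A.Z.1, 36.8 and 39.1 with siCtrl 3, and 108 and 92.1 with siCtrl 4. It lay below all controls, but these were so far apart that the fit did not call it (-1.28 ± 0.49, adjusted p = 0.0941, edgeR), whereas it was called down against either control siRNA alone (-0.41 and -1.81). CDH3, at 85 counts in all, had a log2 fold change of -0.90 ± 0.79 and was not called.

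Among type II cadherins, which include many neuronal members, 2 rose, 1 fell and 5 were not called. Over all genes, 12.2% were called up and 15.7% down. CDH8 had 1.62 to 2.09 CPM in the controls and 5.92 and 7.12 with siH2A.Z.1, a log2 fold change of 1.83 ± 0.19 (adjusted p = 0.00129, edgeR). CDH10 had 1.30 to 1.70 in the controls, and its depleted libraries, at 2.51 and 4.61, were above all of them but far apart (1.248 ± 0.29, adjusted p = 0.0194). CDH24 fell from 70.4 to 82.4 CPM in the controls to 52.7 and 47.8 (-0.62 ± 0.11, adjusted p = 0.00904). CDH11 had 60.2 and 63.3 CPM, just above the control range of 49.3 to 58.4, without a call (0.18 ± 0.10, adjusted p = 0.225).

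CDH13 was at 41.1 and 48.1 CPM against 54.3 to 62.8 in the controls (-0.39 ± 0.12, adjusted p = 0.0441, edgeR). Both depleted libraries were below all controls, but the call was lost without any 1 of the libraries and against siCtrl 3 alone.

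The delta protocadherins, which signal through conserved cytoplasmic motifs, held the largest single rise. PCDH7 (chr4:30720369-31146805, plus strand) was at 2.62 and 2.22 CPM with siCtrl 3, 3.92 and 3.72 with siCtrl 4, and 23.4 and 20.5 with siH2A.Z.1. The groups were far apart, with a log2 fold change of 2.81 ± 0.24 (adjusted p = 0.000666, edgeR), 7-fold. PCDH19, whose loss causes an X-linked epilepsy, rose from 0.267 to 0.625 CPM in the controls to 1.12 and 1.57 (1.61 ± 0.39, adjusted p = 0.024), a gene with 166 counts in all. PCDH17 rose from 15.5 to 17.9 CPM to 23.5 and 22.9 (0.47 ± 0.11, adjusted p = 0.0238).

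PCDH18 moved the other way. It had 8.05 and 7.96 CPM with siCtrl 3, 2.67 and 3.15 with siCtrl 4 and 0.854 and 1.33 with siH2A.Z.1, so the depleted libraries were below all controls and the controls differed from each other. The log2 fold change was -2.31 ± 0.61 (adjusted p = 0.0313, edgeR), and it was -2.85 and -1.40 against siCtrl 3 and siCtrl 4 alone. PCDH11X had 4.06 and 4.18 CPM, with 3.83 and 4.06 in siCtrl 3 and 2.05 and 2.26 in siCtrl 4, and was not called (0.43 ± 0.33, adjusted p = 0.364). PCDH1 had 11.6 and 10.2 CPM against 1.72 and 1.73 with siCtrl 3 and 6.19 and 5.49 with siCtrl 4, above all controls but without a call (1.52 ± 0.53, adjusted p = 0.0743). PCDH9 had 18.4 and 16.1 CPM against 20.4 to 30.5, below all controls and also not called (-0.54 ± 0.19, adjusted p = 0.0779). Of the 12 members with a match to the H2A.Z.1 seed, 10 were tested, 3 were called up (CDH8, PCDH17 and PCDH19) and 1 down (CDH1), beside 12.2% up and 15.7% down over all genes.

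Within the PCDHG cluster the C-type gene PCDHGC3 fell while genes of the A and B types rose. The 23 genes summed to 88.3 to 98 CPM in the controls and to 89.8 and 86.2 upon H2A.Z.1 depletion (exact permutation test, p = 0.267). The 3 C-type genes at the 3′ end, mostly PCDHGC3, summed to 36.9, 37.5, 58.4 and 55.3 CPM in the controls and to 20.1 and 21.2 upon depletion. The 20 A- and B-type genes upstream summed to 51.9, 50.9, 39.6 and 40.1 CPM in the controls and to 69.7 and 65.0 upon depletion. Opposed shifts also separated the control siRNAs, the C-type sum being higher and the A- and B-type sum lower with siCtrl 4 than with siCtrl 3. PCDHGC3 thus held 36.5% to 54.8% of the counts of the cluster in the controls and 18.1% and 18.2% upon depletion. For the share of PCDHGC3 and for the sum of A- and B-type genes the exact two-sided permutation test over libraries gave p = 0.0667, which is the smallest that 2 against 4 libraries allow, so that 0.05 cannot be reached. For the sum of C-type genes the same exact permutation test gave p = 0.133.

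Gene by gene, PCDHGC3 (chr5:141475947-141512977, plus strand) had 32.5 and 34.0 CPM with siCtrl 3, 53.6 and 50.6 with siCtrl 4 and 16.2 and 15.7 with siH2A.Z.1. The depleted libraries were below all controls, with a log2 fold change of -1.42 ± 0.25 (adjusted p = 0.00771, edgeR). Of the 19 A- and B-type genes tested, 17 had a log2 fold change above 0, with a median of 0.90. Of these 19, 6 were called up and none down, where 12.2% and 15.7% of all genes were. PCDHGB8P, a pseudogene, rose from 0.323 to 1.05 CPM to 2.35 and 2.04 (1.88 ± 0.46, adjusted p = 0.0241). The other calls were PCDHGB7 at 1.01, PCDHGA9 at 0.95, PCDHGA10 at 0.90, PCDHGA7 at 0.79 and PCDHGB4 at 0.76, where 4 of these 5, all but PCDHGB7, carry the shared promoter letters of the cluster. Of the 11 PCDHG genes with these letters, all tested, 4 were called up and PCDHGC3 down. Of the 8 tested with a promoter without them, 1 was called up. Most promoters without the exact letters still hold a close variant around the core. Those of PCDHGA2, PCDHGA3, PCDHGA4, PCDHGA5, PCDHGA6, PCDHGA11 and PCDHGB2 differ from them at a single base. Apart from PCDHGA1 and PCDHGB1, the genes with the exact letters lie from PCDHGA7 onward, so letters and position cannot be told apart. PCDHGC4 and PCDHGC5 were not called (0.64 and -0.43).

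The calls lay in the downstream part of the array of A- and B-type genes. Counted from the first PCDHG gene, the called genes run from PCDHGA7, the tenth, to PCDHGB8P, the nineteenth, and none of the 8 genes tested before PCDHGA7 was called. Upstream, PCDHGA1, PCDHGA2 and PCDHGA3 had only 197, 72 and 65 counts in all. Their means were 0.587, 0.182 and 0.208 CPM in the controls and 1.14, 0.454 and 0.558 with siH2A.Z.1. PCDHGA4 (8.16 to 7.70) and PCDHGB2 (4.93 to 4.44) were lower. At counts this low, a missing call does not show that a gene was unchanged. Over the 19 A- and B-type genes tested the log2 fold change and the order along the cluster had a Spearman correlation of 0.53, and over the 13 PCDHA genes tested 0.62. These are descriptions across neighbouring genes of the same libraries, not independent points. Because constant exons are shared, reads on them were not assigned to any gene of the cluster by the counting, and unspliced transcripts that start at an upstream promoter run through the exons downstream of it, so a count on a variable exon is not a count of mature transcripts from its promoter alone.

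In the PCDHA cluster the sum did not separate from the controls, at 53.2 and 48.2 CPM against 44.3 to 49.3 (exact permutation test, p = 0.267). PCDHA12 and PCDHA13, the last genes of the alternate array, rose, and 11 of the 13 genes tested were not called. Over all genes, 12.2% were called up and 15.7% down. PCDHA12 went from 8.13 to 9.42 CPM in the controls to 14.1 and 12.3 (0.63 ± 0.14, adjusted p = 0.0189, edgeR), and PCDHA13 from 2.00 to 2.31 to 3.36 and 4.13 (0.80 ± 0.20, adjusted p = 0.0261).

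Over all genes, 15.7% were called down and 12.2% up upon H2A.Z.1 depletion. In the PCDHB cluster, whose genes have a single coding exon and no shared exons, 3 of the 18 genes tested fell and none rose. PCDHB5, the most expressed of them, had 32.4 and 30.5 CPM with siCtrl 3, 17.4 and 16.8 with siCtrl 4 and 9.29 and 10.0 with siH2A.Z.1 (-1.34 ± 0.33, adjusted p = 0.0261, edgeR). PCDHB16 had 9.57 and 9.26, 4.99 and 6.42, and 3.68 and 3.37 CPM in the same groups (-1.10 ± 0.32, adjusted p = 0.040). PCDHB8 fell by less, from 10.2 to 13.0 CPM to 7.95 and 7.55 (-0.56 ± 0.17, adjusted p = 0.045). All 3 were below every control library. The sum of the cluster, at 79.0 and 80.1 CPM, lay inside the control range of 72.3 to 120 (exact permutation test, p = 0.467), and PCDHB5 made up 23.0% to 27.0% of it in the controls against 11.8% and 12.5% upon depletion.

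**Figure D2:**
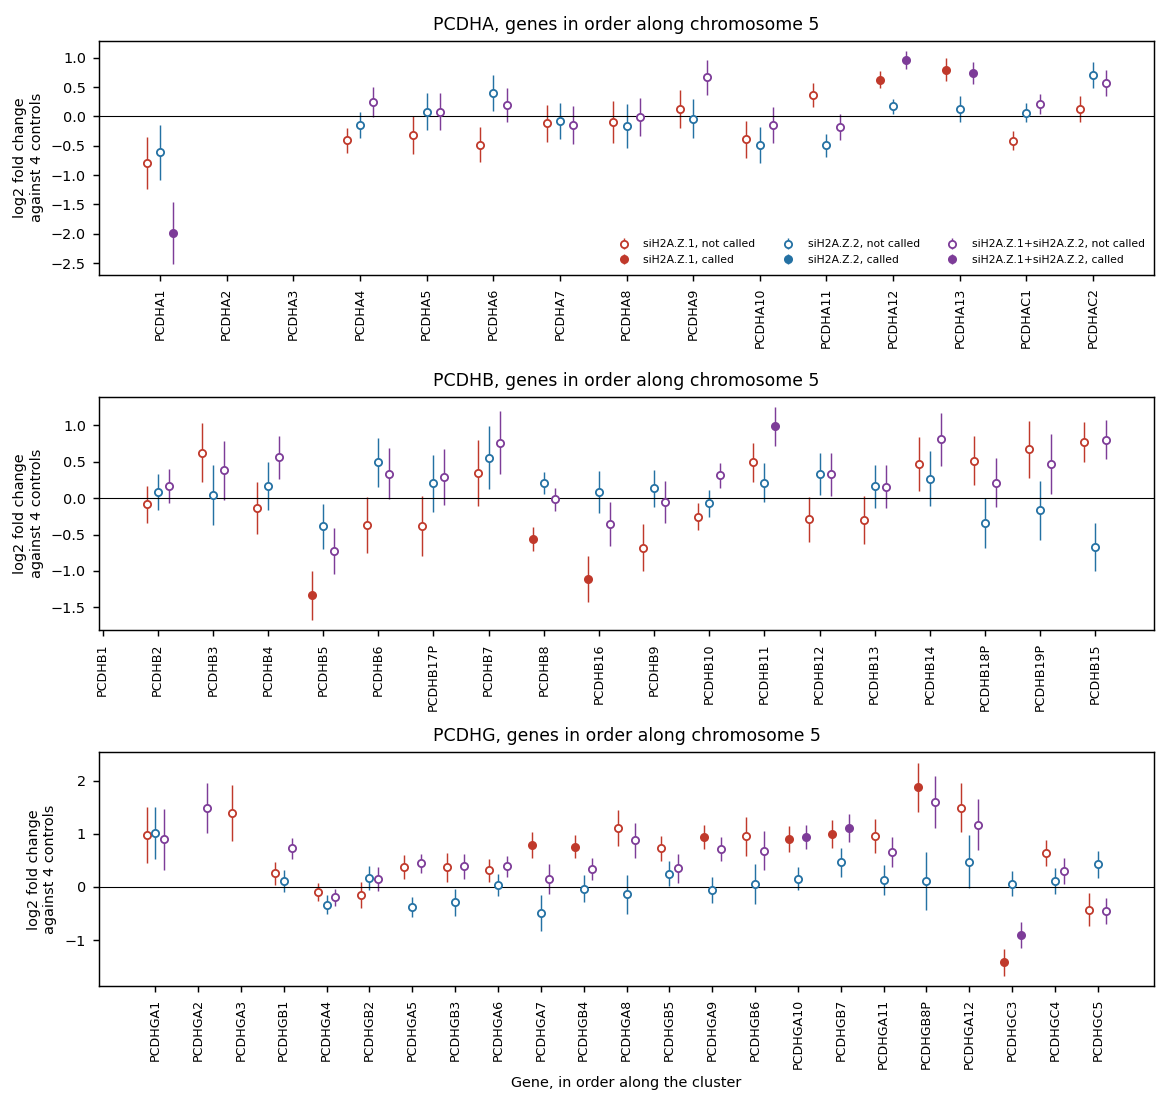
log2 fold change against the 4 controls (points, with SE as bars) of each tested PCDHA, PCDHB and PCDHG gene in its order along chromosome 5, for H2A.Z.1 (red), H2A.Z.2 (blue) and combined (purple) depletion. Filled points were called. Red points lie above 0 for 17 of 19 tested PCDHGA and PCDHGB genes and below 0 at PCDHGC3, and filled points of the PCDHA cluster are at PCDHA12, PCDHA13 and, in combined depletion, PCDHA1.

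Upon H2A.Z.2 depletion, 1 of 76 members tested was called, where 0.785% of all genes were. CDH10 was at 4.31 and 4.81 CPM against 1.30 to 1.70 in the controls (1.61 ± 0.19, adjusted p = 0.0332, edgeR). The depleted libraries lay above all controls, but the call was lost without any 1 of the 6 libraries. DESeq2 called 3 members (CDH10, CDH2 and PCDH7), and 2223 of 16188 genes had an unadjusted p under 0.05.

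Several members differed from the controls without passing the test. CDH2 had 244 and 261 CPM against 127 to 168 (0.78 ± 0.14, adjusted p = 0.0775, edgeR), and it was called up against each control siRNA alone (0.61 and 0.97). PCDH11X, a carrier of the H2A.Z.2 seed match, had 5.80 and 5.99 CPM against 2.05 to 4.06 (0.95 ± 0.31, adjusted p = 0.261). PCDH7 had 7.87 and 6.60 CPM against 2.22 to 3.92 (1.21, adjusted p = 0.11). CDH4 at 64.1 and 50.2 CPM lay between the control siRNAs, so its direction depended on the control: 0.59 against siCtrl 3 and -0.80 against siCtrl 4. CDH1 at 2.32 and 2.65 CPM also lay between them, and PCDHGC3 at 43.9 and 45.2 did too. Of the 10 tested members with a match to the H2A.Z.2 seed, 0 were called by edgeR or by DESeq2, and 1 had an unadjusted p under 0.05.

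In the direct comparison, 13 of 78 members tested were higher upon H2A.Z.1 than upon H2A.Z.2 depletion, where 13.9% of all genes were, and 9 were lower, where 18.4% were. CDH8 (2.23 ± 0.26, adjusted p = 0.000287, edgeR), PCDH7 (1.60 ± 0.24, adjusted p = 0.00116) and PCDHB15 (1.45 ± 0.31, adjusted p = 0.00741) were higher with siH2A.Z.1. CDH1 (-2.61 ± 0.45, adjusted p = 0.00243), PCDHGC3 (-1.48 ± 0.24, adjusted p = 0.00172) and CDH2 (-0.59 ± 0.15, adjusted p = 0.0139) were lower. The count fell to 9 and 11 without siH2A.Z.1 replicate 1 and 2, and to 13 and 7 without siH2A.Z.2 replicate 1 and 2.

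Upon combined depletion, 11 of 77 members tested were called up, where 7.77% of all genes were, and 3 were called down, where 9.35% were. PCDH7 and CDH10 rose most, N-cadherin was called up, and E-cadherin and PCDHGC3 fell. The count was 7 and 5 without siCtrl 4 replicate 1 and 2, and 1 (PCDH7) and 2 (PCDH7 and CDH10) without replicate 1 and 2 of the combined depletion. All 14 calls were made against either control siRNA alone.

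PCDH7 had 27.3 CPM in both libraries (3.13 ± 0.23, adjusted p = 0.00143, edgeR). CDH10 had 6.08 and 6.03 CPM, above all controls (2.03 ± 0.18, adjusted p = 0.00214). CDH2 had 303 and 281 CPM against 127 to 168 in the controls, a doubling of the most expressed member (1.00 ± 0.14, adjusted p = 0.00742). PCDH19 had 1.21 and 1.26 CPM (1.5 ± 0.37, adjusted p = 0.0382), and CDH8 4.65 and 3.10 (1.10 ± 0.24, adjusted p = 0.0254). PCDH11X had 7.83 and 8.67 CPM against 2.05 to 4.06 (1.45 ± 0.31, adjusted p = 0.0241).

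CDH1 was at 0.715 and 0.517 CPM, below all controls (-2.20 ± 0.44, adjusted p = 0.0203, edgeR). PCDHA1, the first gene of the PCDHA cluster, had 0.179 and 0.230 CPM against 0.547 to 1.29 (-1.99 ± 0.52, adjusted p = 0.0444) on 129 counts in all. CDH11 at 73.0 and 66.0 CPM was above all controls and not called (0.37 ± 0.10, adjusted p = 0.0542), and CDH3 and CDH4 were not called (-1.44 and -1.0).

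In the PCDHG cluster, PCDHGC3 had 21.9 and 23.3 CPM (-0.91 ± 0.24, adjusted p = 0.0467, edgeR), the A- and B-type genes summed to 65.1 and 61.0 CPM, above all controls (exact permutation test, p = 0.0667), and PCDHGC3 held 24.1% and 26.3% of the counts of the cluster (exact permutation test, p = 0.133, and also 0.133 for the sum of C-type genes). PCDHGB7 (1.10) and PCDHGA10 (0.94) were called up. The PCDHA genes summed to 54.3 and 66.7 CPM, above all controls (exact permutation test, p = 0.0667), and PCDHA12 reached 14.3 and 18.6 CPM (0.96 ± 0.15, adjusted p = 0.00982) and PCDHA13 3.35 and 3.79 (0.74 ± 0.19, adjusted p = 0.0401). PCDHB11 was the 1 PCDHB gene called, at 26.1 and 23.0 CPM (0.99 ± 0.26, adjusted p = 0.0465). The single and combined comparisons share their 4 control libraries.

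**Figure D3:**
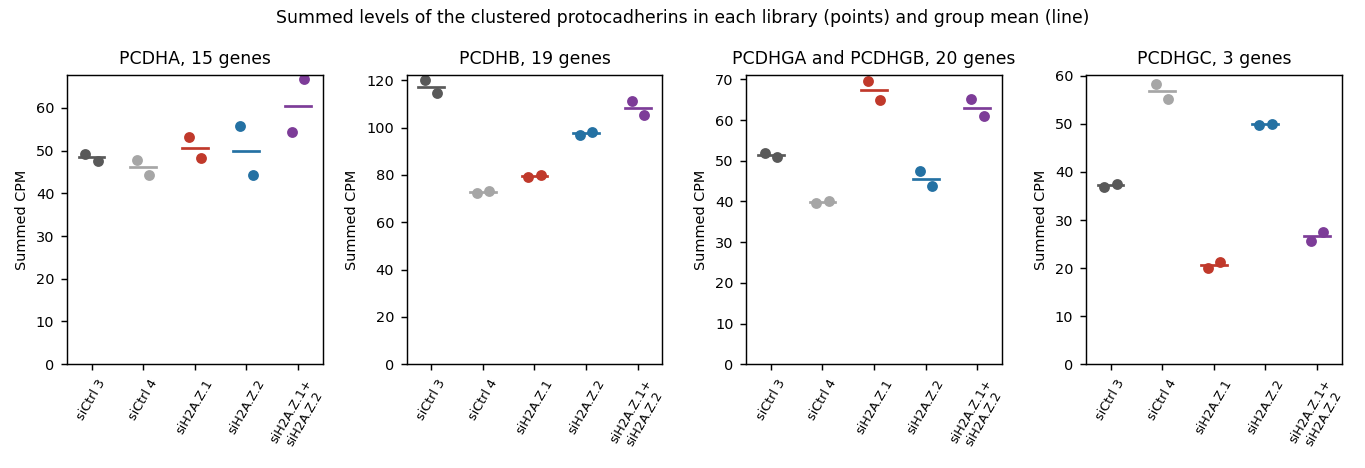
Summed CPM of the PCDHA genes, the PCDHB genes, the PCDHGA and PCDHGB genes and the 3 PCDHGC genes in each library (points), with the mean of the 2 libraries of a group (line). The siH2A.Z.1 and combined libraries are above all controls for PCDHGA and PCDHGB and below all controls for PCDHGC, and the siCtrl 3 and siCtrl 4 libraries are apart for PCDHB.

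Between combined and H2A.Z.1 depletion 4 of 78 members were called, where 3.79% of all genes were, all higher with both siRNAs. PCDH18 was at 7.51 and 5.97 CPM with both against 0.854 and 1.33 with siH2A.Z.1 (2.61 ± 0.59, adjusted p = 0.0433, edgeR), which placed it inside the control range again. CDH6 had 6.62 and 4.71 CPM against 2.03 and 2.37 (1.36 ± 0.30, adjusted p = 0.0393). CDH2 (0.81 ± 0.15, adjusted p = 0.0211) and CDH13 (0.64 ± 0.13, adjusted p = 0.0307), at 72.7 and 66.0 against 41.1 and 48.1 CPM, were also higher. The count was 0 without any 1 library of siH2A.Z.1, siH2A.Z.2 or the combined depletion, and DESeq2 called 5 members.

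The control siRNAs themselves separated many members. With siCtrl 4 against siCtrl 3, 7 of 78 members were called up, where 17.2% of all genes were, and 20 were called down, where 17.3% were. Of the 20, 10 were PCDHB genes, with a median log2 difference of -0.73 over the 18 PCDHB genes tested and 0.01 over all genes. PCDHB14 had 10.7 and 9.96 CPM with siCtrl 3 and 5.26 and 4.60 with siCtrl 4 (-1.07 ± 0.13, adjusted p = 6.47e-05, edgeR). PCDH18 (-1.45 ± 0.19, adjusted p = 9.64e-05) and CDH1 (-0.91 ± 0.20, adjusted p = 0.00353) were lower and CDH4 (1.40 ± 0.13, adjusted p = 7.98e-06), PCDH1 (1.76 ± 0.21, adjusted p = 5.29e-05) and PCDHGC3 (0.65 ± 0.08, adjusted p = 7.44e-05) higher with siCtrl 4. Of the 20 A- and B-type PCDHG genes tested, 18 were lower with siCtrl 4, with a median of -0.46, and 3 were called down and 0 up. The 3 C-type genes were all higher with siCtrl 4.

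Partners and regulators of these genes were read from fixed lists, whose counts stand beside 12.2% of all genes called up and 15.7% called down for siH2A.Z.1, and beside 7.77% and 9.35% for the combined depletion. Of 11 catenins and associated proteins tested, 4 fell upon H2A.Z.1 depletion and none rose: JUP (plakoglobin) from 15.4 ± 7.25 CPM in the controls (SD, n = 4) to a mean of 1.55 (-3.31, adjusted p = 0.00528, edgeR), PKP4 (-0.94), CTNNA1 (-0.89) and VCL (-0.60). The fall of 3 of them was called in combined depletion. CTNNB1 (β-catenin) had -0.01 and was not called. Of 16 other cadherin superfamily genes tested, 6 fell and FAT3 rose (1.03) upon H2A.Z.1 depletion, the 6 being FAT2, FAT4, DCHS1, DCHS2, DSG2 and DSC2.

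Of 17 genes known to act on the protocadherin clusters, 3 rose upon H2A.Z.1 depletion (SMC3 at 0.55, SETDB1 at 0.56 and DNMT3A at 0.43) and DNMT3B fell (-1.56), while CTCF, which binds these promoters, had 0.03 and was not called. Of 4 tested repressors of E-cadherin, SNAI2 (-1.83, adjusted p = 0.00522, edgeR) and TWIST2 (-1.47, adjusted p = 0.0387) fell and none rose. Upon combined depletion 3 of the other superfamily genes rose (FAT1, FAT3 and FAT4, the last at 0.55 against -0.55 upon H2A.Z.1 depletion) and 2 fell, 5 of the cluster regulators rose and DNMT3B fell (-0.95), and SNAI2 fell (-1.57). Upon H2A.Z.2 depletion edgeR called 0 genes of these 4 lists, with an unadjusted p under 0.05 for 0 catenins, 6 other superfamily genes, 5 cluster regulators and 0 repressors. The control siRNAs separated genes of these lists too, beside 17.2% of all genes called up and 17.3% down. With siCtrl 4 against siCtrl 3, 3 catenins were up and 2 down, and 2 other superfamily genes were up and 6 down. Of the cluster regulators 0 were up and 4 down, and of the 4 repressors 3 were up and 1 down.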

How the data were processed

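Strand-specific total RNA libraries of U2OS cells were analysed from the deposited table of raw counts. Per the labels and the study's methods, the authors aligned paired reads to hg38 with STAR, counted them per gene and strand with HTSeq 0.6.1 on the RefSeq annotation, and deposited these counts without normalization. HTSeq leaves out reads that fall on more than one gene, which removes the constant exons of PCDHA and PCDHG and reads shared between similar genes, and exons shared by PCDHGA8 with PCDHGB4 and by PCDHA2 with PCDHA3 make their counts less certain. The authors' own DESeq2 tables (fold changes, p-values and normalized counts) were not used.

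Tests of each depletion used its 2 libraries and the 4 controls, without a block, in edgeR 4.0.16 (quasi-likelihood, two-sided; R 4.3.3, limma 3.58.1) on counts scaled by TMM and filtered by filterByExpr. Contrasts between depletions and between control siRNAs came from fits of all 10 libraries. Calls needed a Benjamini-Hochberg adjusted p-value under 0.05 over all genes tested and a fold change above 1.25. The fit was tested on simulated counts. Alternatives were DESeq2 1.42.0, other scalings, filters and folds, each control siRNA alone, a replicate block and leaving out each library. CPM used TMM factors of all 10 libraries, and levels per kb used GENCODE v44 exons not shared with another gene of the table. Reads were counted on RefSeq, so long GENCODE exons can lower a level per kb. Sequences came from GENCODE v44, RefSeq promoters (68 of 90 members matched) and the study's siRNA list. Python 3.11.15, numpy 2.4.6, pandas 2.3.3 and matplotlib 3.10.9 were used.

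The members and lists were chosen with earlier results of these data known. Named genes were CDH1, CDH2, CDH3, CDH4, CDH11, CDH13 and PCDH11X, the members called in each depletion (the 5 largest rises and falls where more than 12 were called) and the 3 members highest per kb in each class. Others named were chosen after their values were seen. No test of the clusters was set beforehand, and the exact permutation tests of cluster sums and of the PCDHGC3 share were added to the plan. 1 gene of the cluster regulator list is not reported here.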

Additional observations from a re-analysis of the deposited data

How the results depend on the processing

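The number of members called depended most on the controls and on single libraries. With siCtrl 3 or siCtrl 4 as the only control, 37 and 42 members were called upon H2A.Z.1 depletion (21 with both), 10 and 20 upon H2A.Z.2 depletion (1 with both) and 30 and 42 upon combined depletion (14 with both). Leaving out 1 library at a time gave 2 to 19, 0 to 0 and 1 to 14 calls, and 7 to 26 between the single depletions, 0 to 4 between combined and H2A.Z.1 depletion and 19 to 28 between the control siRNAs. A lone library left in a group was assumed to vary like the others. Above 2-fold, 11, 9, 11, 2 and 7 members were called upon H2A.Z.1 and combined depletion, between the single depletions, between combined and H2A.Z.1 depletion and between control siRNAs. DESeq2 called 3 upon H2A.Z.2 depletion. With the replicate block, 10, 0 and 4 members were called upon H2A.Z.1, H2A.Z.2 and combined depletion and 1 between combined and H2A.Z.1 depletion. Nothing in the labels says what a number marks. Over 11751 genes, deviations of same-numbered libraries correlated at 0.27 to 0.71 among the controls and single depletions and at -0.65 to -0.16 with the combined depletion. With the block and the numbers of the combined depletion crossed, a setting chosen after seeing the data, 4 members were called upon combined depletion and 3 between combined and H2A.Z.1 depletion.

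Medians of log2 fold changes moved with the controls too, for PCDHA and PCDHG in turn: upon H2A.Z.1 depletion -0.33 and 0.58 against siCtrl 3 and -0.041 and 0.89 against siCtrl 4, upon H2A.Z.2 depletion -0.21 and -0.057, and 0.11 and 0.26, and upon combined depletion -0.012 and 0.38, and 0.33 and 0.77. Scaled by library size only, they were -0.016 and 0.87 upon H2A.Z.1 and 0.28 and 0.63 upon combined depletion. The PCDHB median changed sign with the control: -0.29 and 0.15 upon H2A.Z.1, -0.14 and 0.37 upon H2A.Z.2 and -0.03 and 0.63 upon combined depletion, against siCtrl 3 and siCtrl 4. Among named members, directions turned only upon H2A.Z.2 depletion: CDH4 was at 0.59 against siCtrl 3, CDH1 at 0.31 against siCtrl 4, and without 1 library CDH3 ran from -0.29 to 0.35 and CDH4 from -0.48 to 0.027. Apart from what the controls show, the cause was not tested. Over all genes, calls upon H2A.Z.1 depletion numbered 4505, with 1817 above 2-fold and 7476 and 8389 against siCtrl 3 and siCtrl 4 alone. Upon H2A.Z.2 depletion they numbered 127, with 673 by DESeq2, 6 with the block, 77 with RLE size factors, 75 by library size, 55 above 2-fold and 2260 and 4708 against each control. Upon combined depletion they numbered 2771, with 1019, 1204 with the block, 6082 and 7637, and between combined and H2A.Z.1 depletion 625, with 1248 by DESeq2, 188 above 2-fold and 394 with the block. CDH13 lost its call in 3 of the scaling and filter settings, and members near 20 counts cannot show small changes at this depth.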
